A study of Mus musculus with 12 samples.

Results

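Olfactory sensory neurons turn odorant binding into a current through a cascade encoded by Gnal, Gng13, Adcy3, Cnga2, Cnga4, Cngb1, Ano2, Pde1c, Pde4a and Slc24a4. These 10 genes were taken by symbol from a deposited expression table of 44,930 genes, and their levels, their co-variation between animals and their difference between genotypes were examined. RNA came from the olfactory mucosa of 6 mice with the eB deletion and 6 wildtype mice. All 12 animals were males of strain 129S6;C57BL/6J at postnatal day 30. The deletion removes eB, a 1,155 bp enhancer that acts on the class I family of odorant receptors and is given at chromosome 7, 102,847,692 to 102,848,846. The build of that interval is not stated beside it, and the submitters' processing notes name GRCm38.p6. The labels name neither zygosity nor litters nor dissection batches. The comparison asks whether the signalling machinery that all odorant receptors feed into differed when a receptor enhancer was missing.

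An odorant receptor activates the G protein Golf, whose alpha subunit (Gnal) stimulates the adenylyl cyclase Adcy3. The cyclic AMP that it makes opens a cyclic nucleotide-gated channel in the cilia, built of Cnga2, Cnga4 and Cngb1 subunits, and the calcium that enters opens the chloride channel Ano2, which enlarges the current. Phosphodiesterases degrade the cyclic AMP and the exchanger Slc24a4 removes calcium, which ends the response and prepares the neuron for the next one.

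Reads on genes numbered 15,466,926 to 23,059,835 per library in eB deletion mice and 13,152,662 to 19,823,345 in wildtype mice. All 10 genes passed the filter on low values, and the thinnest single measurement was Slc24a4 in wildtype 2, with 722 reads and a counting error of 3.72%. The predicted gene Gm10800 took more than 0.1% of the reads in 4 libraries, with 2.38% in eB deletion 4 and 0.55% in eB deletion 1, and with 11.02% in wildtype 2 and 0.33% in wildtype 5. The other 8 libraries had at most 0.0051%. The markers of mature olfactory sensory neurons were present in every library. Omp, which encodes olfactory marker protein, averaged 63,297 ± 4,535 normalized read counts in eB deletion mice and 64,608 ± 3,979 in wildtype mice (SD, n = 6 each). In RNA from whole mucosa, fewer neurons and less RNA per neuron cannot be told apart.

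The cascade genes were strongly expressed, and Cnga2 and Gnal stood above the rest. Levels of different genes were compared as normalized reads per kb of exon, averaged over the 12 animals, with the exons of all annotated transcripts of a gene merged. Cnga2 had 5,581 ± 518 (SD, n = 12) normalized reads per kb, Gnal 2,985 ± 255 and Cnga4 1,979 ± 208. Gng13 had 1,773 ± 174, Adcy3 1,481 ± 147 and Ano2 1,373 ± 139. The enzymes and the exchanger that end the response were lower, as was Cngb1. Cngb1 had 514 ± 52.1 normalized reads per kb, Pde1c 439 ± 41.1, Pde4a 297 ± 33.8 and Slc24a4 240 ± 20.4. The highest level was 23.3 times the lowest, and even the lowest was 3.67 times the median of all 19,100 genes tested, 65.4 per kb. Neighbours in this order overlapped between animals in 5 of 9 cases, namely Cnga4 with Gng13, Gng13 with Adcy3, Adcy3 with Ano2, Cngb1 with Pde1c, and Pde4a with Slc24a4. The channel subunit genes differed from each other in level. Cnga4 stood at 0.343 ± 0.031 of the Cnga2 level per kb in eB deletion mice and 0.368 ± 0.027 in wildtype mice, and Cngb1 at 0.0896 ± 0.0074 in eB deletion mice and 0.0957 ± 0.0138 in wildtype mice (SD, n = 6 each).

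The order at the top depended on the transcript length used. Divided by the longest annotated transcript, Gnal had 5,814 ± 497 and Cnga2 5,638 ± 523 normalized reads per kb, and Gnal was above Cnga2 in 9 of 12 animals. On that scale Ano2 also stood above Adcy3, and Pde1c above Cngb1, in 12 of 12 animals each. Cngb1 had 777 ± 78.8 normalized reads per kb on it, so its level relative to Cnga2 also depends on the length used. Gng13 shares 51.6% of its exon bases with Chtf18 on the opposite strand, Adcy3 shares 22.1% with Cenpo and Gnal 7.63% with Mppe1. Whether reads were counted by strand is not stated by the labels, so that the levels of these 3 genes are less certain. The other 7 share no exon bases with another gene of the table.

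Promoter windows are shown for 5 members, Cnga2, Slc24a4, Cnga4, Gng13 and Pde4a, chosen among the genes whose windows hold the letters marked here, so that the matches can be seen in place. They are RefSeq windows on GRCm38.p6, from 250 bases before to 50 after an annotated start, 5′ to 3′, and capitals mark CCCNNGGG. These letters are the core of the site bound by EBF (Olf-1) factors, which are transcription factors of olfactory neurons, and they read the same on both strands. Gng13 has 2 annotated windows and Pde4a has 3, of which the 1 that holds the letters is shown for each and the others do not hold them. Which start the mucosa uses was not examined.
Cnga2 promoter window, chrX:71991599-71991898, plus strand: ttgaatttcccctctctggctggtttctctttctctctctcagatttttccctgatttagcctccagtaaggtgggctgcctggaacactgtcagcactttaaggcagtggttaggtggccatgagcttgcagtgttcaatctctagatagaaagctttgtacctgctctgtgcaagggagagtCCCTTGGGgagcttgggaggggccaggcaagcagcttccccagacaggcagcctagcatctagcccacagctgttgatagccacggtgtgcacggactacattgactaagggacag
Slc24a4 promoter window, chr12:102128477-102128776, plus strand: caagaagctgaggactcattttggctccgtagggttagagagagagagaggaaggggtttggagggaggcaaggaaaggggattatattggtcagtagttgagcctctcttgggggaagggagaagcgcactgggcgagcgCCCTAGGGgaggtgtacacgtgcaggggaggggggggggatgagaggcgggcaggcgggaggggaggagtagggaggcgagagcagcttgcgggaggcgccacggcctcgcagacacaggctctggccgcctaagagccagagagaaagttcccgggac
Cnga4 promoter window, chr7:105404318-105404617, plus strand: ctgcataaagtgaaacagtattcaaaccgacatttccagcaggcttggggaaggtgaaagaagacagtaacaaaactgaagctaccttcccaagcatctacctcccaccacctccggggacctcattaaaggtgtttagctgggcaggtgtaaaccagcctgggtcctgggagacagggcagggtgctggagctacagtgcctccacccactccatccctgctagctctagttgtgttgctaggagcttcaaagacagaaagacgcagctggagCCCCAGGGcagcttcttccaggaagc
Gng13 promoter window, chr17:25716922-25717221, plus strand: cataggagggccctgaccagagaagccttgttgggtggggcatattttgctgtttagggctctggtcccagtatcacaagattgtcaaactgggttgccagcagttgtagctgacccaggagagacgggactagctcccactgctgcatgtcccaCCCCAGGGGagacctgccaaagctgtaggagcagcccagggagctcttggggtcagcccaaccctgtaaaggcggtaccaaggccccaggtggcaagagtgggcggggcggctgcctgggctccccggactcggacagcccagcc
Pde4a promoter window, chr9:21183851-21184150, plus strand: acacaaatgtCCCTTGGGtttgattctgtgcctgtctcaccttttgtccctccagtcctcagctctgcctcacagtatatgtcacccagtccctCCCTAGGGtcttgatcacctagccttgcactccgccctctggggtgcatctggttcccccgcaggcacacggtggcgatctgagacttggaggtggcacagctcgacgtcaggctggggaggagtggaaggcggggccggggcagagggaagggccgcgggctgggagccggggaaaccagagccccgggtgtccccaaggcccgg
The core begins at position -66 from the start in Cnga2 (CCCTTGGG), at -109 in Slc24a4 (CCCTAGGG) and at 25 in Cnga4 (CCCCAGGG). In Gng13, 2 overlapping matches begin at -95 and -94, and in Pde4a 2 separate ones begin at -240 and -156. The table held 17 windows of 9 members, and none of Gnal. CCCNNGGG occurred in 7 of them (41.2%), belonging to 7 of the 9 genes, against 13.7% of all 32,851 windows. Besides the 5 shown, Cngb1 and Ano2 had a match, and the windows of Adcy3 and Pde1c had none. The median GC content was 57.3% in member windows and 52.7% in all, and its part in these shares was not tested. The full palindrome, with 1 more T before and 1 more A after the core, was in 0 of 17 windows and in 0.904% of all, and TAATTA, a homeodomain core, was in 0 of 17 and in 5.29% of all. In total 11 letter patterns were searched and these 3 were chosen for the text after the matches were seen, so the shares are a description of the letters only.

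Of the 10 members, 8 were set beside listed related genes that encode the same kind of protein, and 7 of the 8 had the highest level per kb of their list. Gnal was at 9.85 times the level per kb of Gna12, the highest of 14 other G protein alpha subunits, and Gng13 at 6.90 times that of Gng5. Adcy3 was at 18.5 times the level of Adcy6 and made up 85.7% of the summed level of the adenylyl cyclases listed. For the channel, Cnga2 was at 5,581 per kb, whereas the photoreceptor subunit gene Cngb3 was at 4.00 ± 2.36 (SD, n = 12), and Cnga1 and Cnga3 were lower still, at 0.787 and 2.57. Ano2 was at 7.80 times the level of Ano1, Pde1c at 13.7 times that of Pde1b and Pde4a at 8.45 times that of Pde4d. These multiples depend on the length used. By longest annotated transcript, Gnai2 (458 per kb) was above Gna12 (303), Gng8 (384) above Gng5 (294) and Ano10 (267) above Ano1 (240). The same 7 members were still the highest of their lists on that scale. Gnai3 and Pde4c were listed but not found by symbol. Slc24a4 was the exception. Slc24a2, another potassium-dependent sodium/calcium exchanger gene, had 497 ± 39.2 normalized reads per kb against 240 ± 20.4 for Slc24a4, and was above it in 12 of 12 animals. Gnas, which encodes the stimulatory G protein alpha subunit closest to Golf, was listed at only 66.5 normalized read counts, and 13.1% of its exon bases overlap Gm20721 on the opposite strand, which makes this value uncertain.

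**Figure D1:**
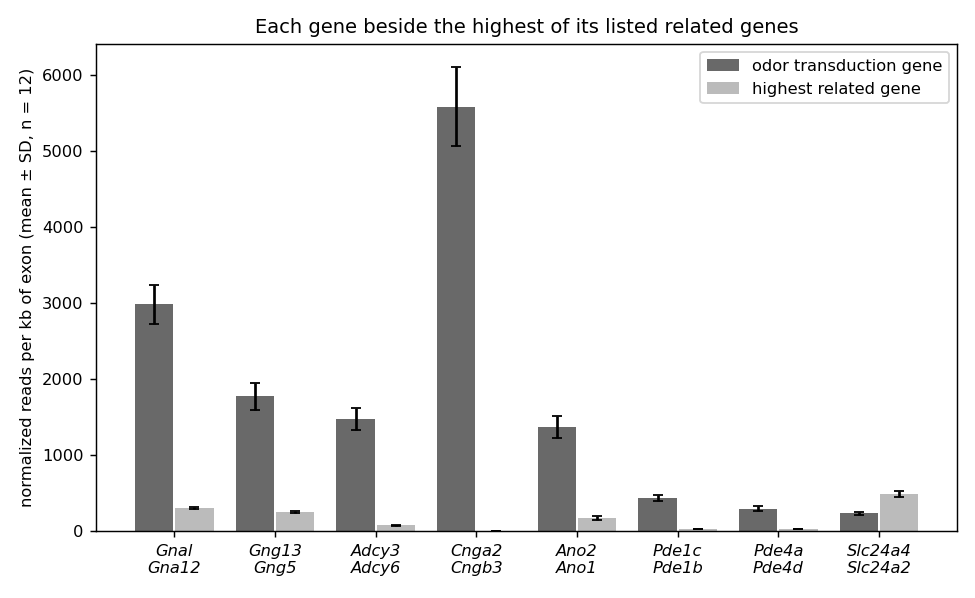
Mean normalized reads per kb of exon (linear axis; error bars SD, n = 12 animals) for 8 odor transduction genes, dark bars, each beside the highest of its listed related genes, grey bars. Slc24a4 is the only gene of the 8 that stands below its related gene, at 240 against 497 for Slc24a2.

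No member passed the test between the genotypes after adjustment over all genes. In limma-trend, 0 of the 10 members passed an adjusted p of 0.05, as did 0 of all 19,100 genes (0%). At an unadjusted p under 0.05, 1 member was found, Pde4a, against a background of 1,078 genes (5.64%), of which those higher in the deletion, as Pde4a was, were 2.83% of all. The quasi-likelihood test of edgeR called 0 genes (0%) and DESeq2 18 genes (0.0942%), with 0 members among them. The values of the groups overlapped for all 10 members, and they did not overlap for 56 of all genes (0.293%). The log2 fold change, eB deletion minus wildtype, was positive for 8 members and negative for 2, and it was positive for 51.7% of all genes. Its median was 0.05 for the members and 0.0038 for all genes. With 1 animal left out, the median of the members lay between 0.011 and 0.078. Without eB deletion 2 it was 0.011, and 6 of the 10 members were positive. The members varied together between animals (below), so their signs are not 10 separate observations. The median size without regard to sign was 0.047 for members, 0.072 for all genes and 0.046 for the 4,041 genes with a mean of at least 1,000.

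**Figure D2:**
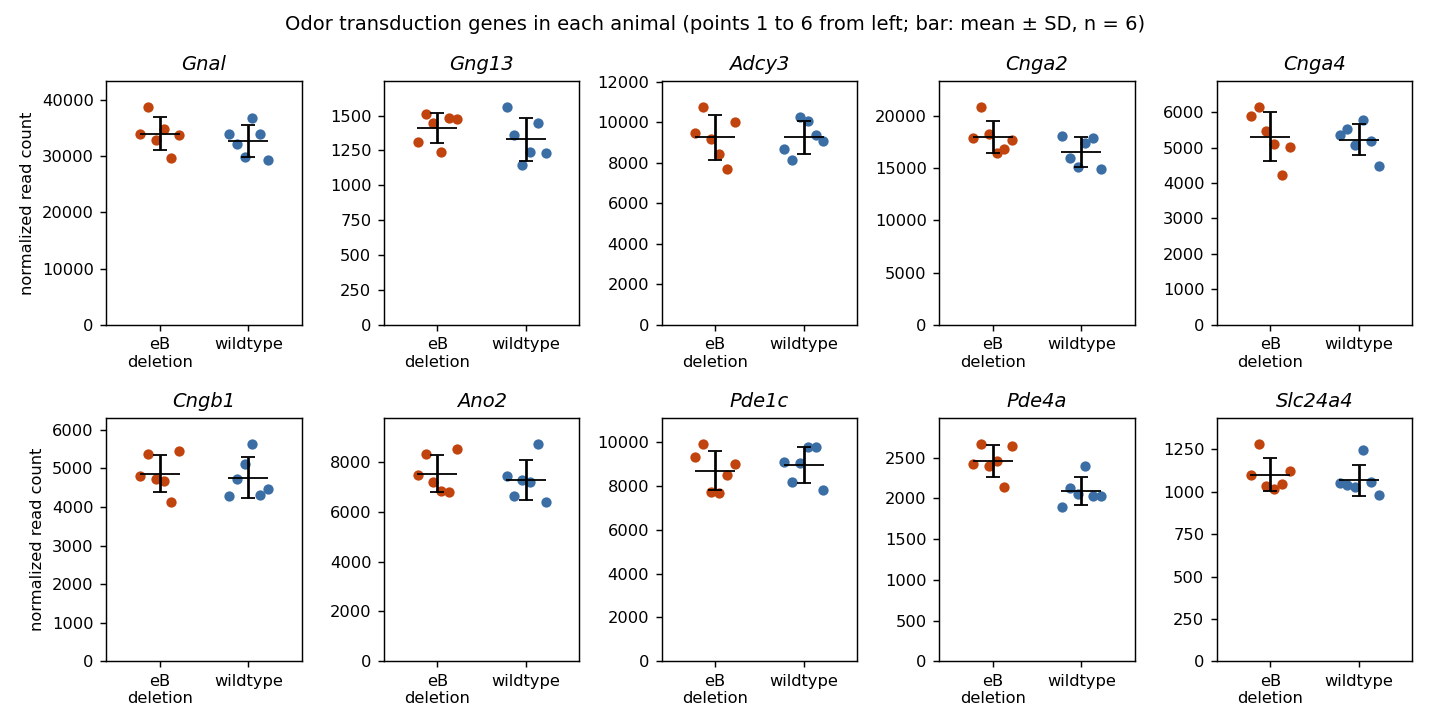
Normalized read count of the 10 odor transduction genes (linear axes from 0) in each animal, with 6 eB deletion mice on the left of each panel and 6 wildtype mice on the right. Bars are mean ± SD (n = 6), and the groups overlap in every panel, with the smallest overlap for Pde4a.

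Among the G protein genes, Gnal (GRCm38, chromosome 18, 67,088,216 to 67,226,792) ran from 29,716 to 38,766 normalized read counts in eB deletion mice, with a median of 33,919, and from 29,267 to 36,890 in wildtype mice, with a median of 33,076. The groups overlapped over nearly their whole range, and the log2 fold change was 0.06 ± 0.08 (SE; limma adjusted p = 0.971). Gng13 (chromosome 17, 25,717,171 to 25,719,406), the gamma subunit gene, ran from 1,237 to 1,510 in eB deletion mice, with a median of 1,462, and from 1,147 to 1,561 in wildtype mice, with a median of 1,301. Its log2 fold change was 0.09 ± 0.07 (SE; limma adjusted p = 0.942). When the 4 libraries above 0.1% Gm10800 were left out, the Gng13 value became 0.20, with an unadjusted limma p of 0.033 and an adjusted p of 0.844, and its adjusted p lay between 0.809 and 1.0 over all alternatives.

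The cyclase gene Adcy3 (chromosome 12, 4,133,103 to 4,213,525) had nearly equal means, 9,248 ± 1,096 normalized read counts in eB deletion mice and 9,253 ± 807 in wildtype mice (SD, n = 6 each). Its range was wider in the deletion, 7,666 to 10,744, against 8,126 to 10,238 in wildtype mice. The log2 fold change was -0.0049 ± 0.081 (SE), and its 95% interval ran from 11.5% lower to 12.2% higher.

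The principal channel subunit gene Cnga2 (chromosome X, 71,991,849 to 72,010,218) had the second-largest difference of the 10. It ran from 16,464 to 20,862 normalized read counts in eB deletion mice, with a median of 17,767, and from 14,890 to 18,079 in wildtype mice, with a median of 16,694. Of 6 eB deletion animals, 5 lay above the wildtype mean, and the log2 fold change was 0.12 ± 0.07 (SE; limma adjusted p = 0.900). With Omp as a covariate it was 0.15 (limma unadjusted p = 0.024, adjusted p = 0.833), and its adjusted p lay between 0.775 and 1.0 over all alternatives. The modulatory subunit genes were closer to 0. Cnga4 had 5,312 ± 687 normalized read counts in eB deletion mice and 5,227 ± 448 in wildtype mice, and Cngb1 (chromosome 8, 95,239,045 to 95,306,585) had 4,862 ± 486 in eB deletion mice and 4,758 ± 529 in wildtype mice (SD, n = 6 each). Their log2 fold changes were 0.02 ± 0.08 for Cnga4 and 0.03 ± 0.08 for Cngb1 (SE). Cnga4 is the one member on the chromosome of the deletion. It lies at 105,404,568 to 105,408,742, 35.2 kb beyond Olfr692, the last class I receptor gene of the cluster, and 2.56 Mb from eB if the interval is on GRCm38.

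The chloride channel gene Ano2 (chromosome 6, 125,690,419 to 126,040,126) had a log2 fold change of 0.05 ± 0.08 (SE), with 6,790 to 8,509 normalized read counts in eB deletion mice and 6,384 to 8,716 in wildtype mice. The wildtype range enclosed the deletion range.

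Among the genes that end the response, the phosphodiesterase gene Pde4a (chromosome 9, 21,165,714 to 21,213,248) had the largest difference of the 10. The 6 eB deletion mice had 2,423, 2,669, 2,401, 2,461, 2,138 and 2,647 normalized read counts, and the 6 wildtype mice had 1,894, 2,130, 2,057, 2,402, 2,026 and 2,032. All 6 eB deletion animals were above the wildtype mean of 2,090, but the groups overlapped, since wildtype 4 with 2,402 was above eB deletion 3 and eB deletion 5. The means were 2,456 ± 194 in eB deletion mice and 2,090 ± 171 in wildtype mice (SD, n = 6 each). The difference of 17.5% (95% interval 7.01% to 29.1%) corresponded to a log2 fold change of 0.23 ± 0.06 (SE) and ranked 56th among all genes by p (limma unadjusted p = 0.0021). It did not pass after adjustment over all genes (limma adjusted p = 0.682), and over the alternatives the log2 fold change stayed between 0.21 and 0.27 and the adjusted p between 0.155 and 1.0. In the authors' deposited table, which counts wildtype over deletion, Pde4a stands at -0.198 with an adjusted p of 0.194, and the other 9 members at adjusted p of 0.999. Of its 44,930 genes, 8 pass an adjusted p of 0.05 there. DESeq2 on the recovered reads gave Pde4a 0.234 as eB deletion minus wildtype, and why the sizes differ was not examined. Pde4a has been placed outside the cilia in olfactory neurons, whereas the calcium-dependent Pde1c is a ciliary enzyme. Pde1c (chromosome 6, 56,069,804 to 56,569,103) had a log2 fold change of -0.05 ± 0.08 (SE; limma adjusted p = 0.976), with 8,673 ± 892 normalized read counts in eB deletion mice and 8,941 ± 809 in wildtype mice (SD, n = 6 each). The exchanger gene Slc24a4 (chromosome 12, 102,128,733 to 102,267,091) had 1,101 ± 98.2 normalized read counts in eB deletion mice and 1,068 ± 92.1 in wildtype mice (SD, n = 6 each). Its log2 fold change was 0.04 ± 0.07 (SE).

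For the 9 members other than Pde4a, the 95% intervals of the single differences together reached from 13.4% lower to 21.1% higher in the deletion. Each difference within its interval is compatible with these values at 6 animals a group. Related genes listed beside Pde4a gave values on both sides of 0. Pde4d had a log2 fold change of 0.15 ± 0.05 (SE; limma unadjusted p = 0.015, adjusted p = 0.816), with 444 ± 15.9 normalized read counts in eB deletion mice and 400 ± 21.3 in wildtype mice (SD, n = 6 each), and Pde4b one of -0.05 ± 0.08 (SE).

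**Figure D3:**
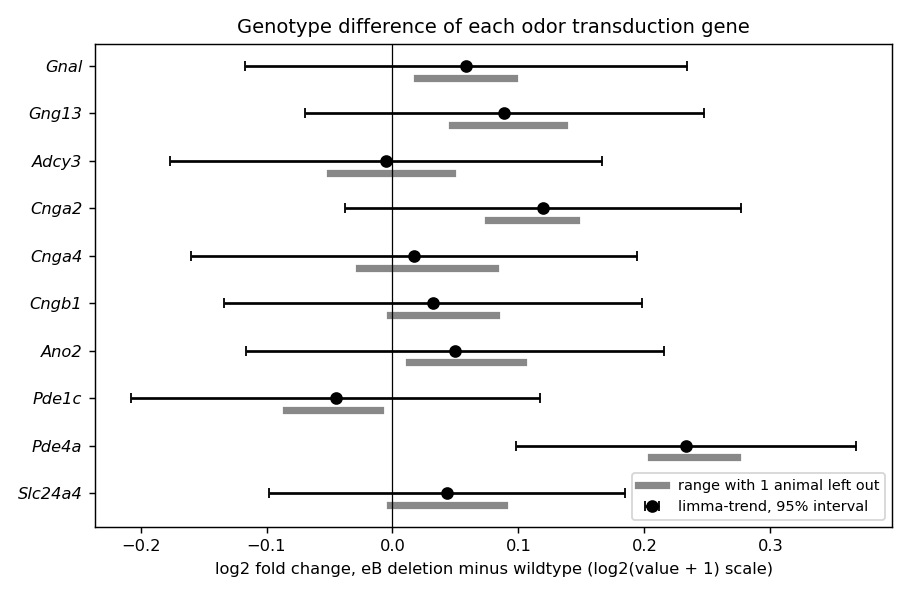
Log2 fold change of each odor transduction gene, eB deletion minus wildtype, from limma-trend on log2(value + 1), with 95% intervals (black). Grey bars give the range of the estimate when 1 animal is left out, and the interval lies above 0 for Pde4a alone, whose adjusted p is 0.682.

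Ratios between genes within 1 animal do not depend on how its library was scaled, and 8 ratios of members and that of Gnas to Gnal were tested between the genotypes by exact permutation (two-sided, 924 assignments). After Benjamini-Hochberg adjustment over the 9 ratios, 0 passed, and 1 had an unadjusted exact p under 0.05. The log2 ratio of Pde4a, which degrades cyclic AMP, to Adcy3, which makes it, was -1.91 ± 0.08 in eB deletion mice and -2.15 ± 0.13 in wildtype mice (SD, n = 6 each). The difference was 0.24 ± 0.06 (SE; exact p = 0.0065, adjusted p = 0.058; adjusted p 0.019 to 0.563 over all alternatives). It passed in 1 alternative only, without wildtype 2, where it was 0.28 (exact adjusted p = 0.019). Without the 4 libraries over 0.1% Gm10800 it was 0.26 (exact p = 0.029, adjusted p = 0.257). That p is the smallest the test can give on the animals left, so this setting could not pass. Since Adcy3 was nearly equal between the groups, the ratio mostly restates the Pde4a difference. The ratio of Pde1c to Adcy3 differed by -0.04 ± 0.07 (SE; exact p = 0.593). The ratio of Cnga4 to Cnga2 differed by -0.10 ± 0.07 (exact p = 0.180, adjusted p = 0.714) and that of Ano2 to Cnga2 by -0.07 ± 0.06 (exact p = 0.238). The exact p of the other 5 ratios lay between 0.392 and 0.944.

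Between animals, the members mostly went up and down together. The coefficient of variation over the 12 animals was 8.52% to 11.4%, with a median of 9.87%, against 7.19% for the 4,041 genes with a mean of at least 1,000 and 6.45% for Omp. Animal eB deletion 2 had the highest value of the 12 animals for 7 of the 10 genes. Wildtype 6 had the lowest for 4 genes and lay above the median for 0 of 10, and eB deletion 5 had the lowest for 3. Omp followed in part. It was 0.11 above its median on the log2 scale in eB deletion 2, 0.13 below it in eB deletion 5 and 0.17 below it in wildtype 6, but also 0.17 below it in eB deletion 4, where the members had a median deviation of -0.06.

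**Figure D4:**
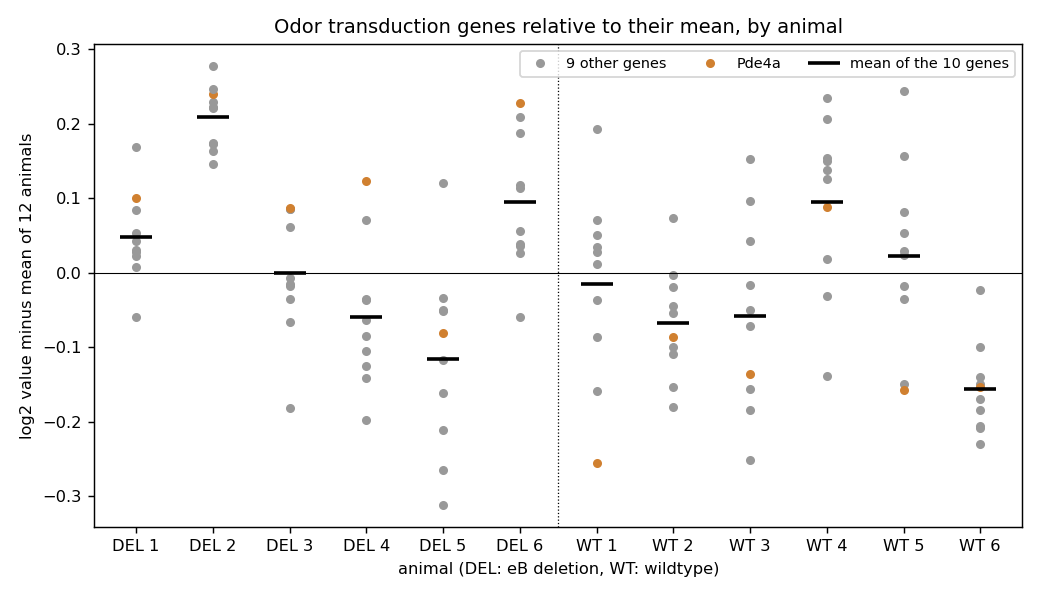
Log2 value of each odor transduction gene minus its mean over 12 animals, with 6 eB deletion mice on the left and 6 wildtype mice on the right. Points are genes, Pde4a is orange and black bars are means of the 10 genes, and 10 of 10 points lie above 0 in eB deletion 2 and 10 of 10 below 0 in wildtype 6.

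Of the 45 pairs of members, 43 had a positive correlation, with a median Pearson r of 0.53 and a median Spearman rho of 0.48 over 12 animals. The mean r over member pairs was 0.48, against 0.23 for pairs among genes with a mean of at least 1,000 and 0.0078 for all pairs of tested genes. After adjustment over the 45 pairs, 9 passed by Pearson r and 0 by Spearman rho. These r pool both genotypes. With values centred on each group, 15 pairs passed by Pearson r. The highest centred r was that of Cngb1 with Pde4a, 0.92 (permutation adjusted p = 0.00135). For that pair the pooled r was 0.70 (permutation adjusted p = 0.058), with 0.98 among eB deletion mice and 0.87 among wildtype mice. The Cnga2, Cnga4 and Slc24a4 windows printed above belong to the genes that varied most closely with Gnal, which itself had no window. The Gng13 window holds the letters too, yet Gng13 had the lowest median r with the other members, 0.22. Adcy3, whose windows hold no match, is in a pair that passed. The printed windows were chosen for holding the letters, as did windows of 7 of the 9 members that had any. A relation of the letters to co-variation was not tested. By pooled r, Gnal led with Slc24a4 (r = 0.81, permutation p = 0.0011, adjusted p = 0.034; rho = 0.66, permutation p = 0.023), with Cnga4 (r = 0.80, rho = 0.72, permutation adjusted p = 0.034) and with Cnga2 (r = 0.80, rho = 0.59, permutation adjusted p = 0.034). Adcy3 varied with Cngb1 (r = 0.78, rho = 0.80, permutation adjusted p = 0.034). The other 5 pairs were Pde1c with Slc24a4, Ano2 with Pde1c, Cngb1 with Slc24a4, Cnga2 with Slc24a4 and Gng13 with Cnga2, with r of 0.70 to 0.73, rho of 0.49 to 0.81 and permutation adjusted p of 0.042 to 0.046.

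The correlations rest in part on the outlying animals. Without the 2 animals farthest from the median of the first gene, the median r of the 45 pairs was 0.35. The r of Gnal with Slc24a4 was then 0.62, with Cnga4 0.65 and with Cnga2 0.55, that of Adcy3 with Cngb1 was 0.65, and that of Cnga2 with Slc24a4 only 0.33. It was 0.74 for Pde1c with Slc24a4 and 0.76 for Ano2 with Pde1c, but the animals left out differ from pair to pair, and eB deletion 2 and wildtype 6 were kept for these pairs. With any 1 animal left out, the r of Pde1c with Slc24a4 lay between 0.68 and 0.83 and that of Ano2 with Pde1c between 0.67 and 0.80. The number of pairs past the threshold, these included, was 0 without eB deletion 2, without wildtype 1 or without wildtype 6. Within the genotypes, the median r was 0.68 among the 6 eB deletion mice, with 43 of 45 pairs positive, and 0.44 among the 6 wildtype mice, with 35 of 45 pairs positive. The difference between the genotypes in these medians was not tested. In the 8 libraries with little Gm10800 the median r was 0.63.

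**Figure D5:**
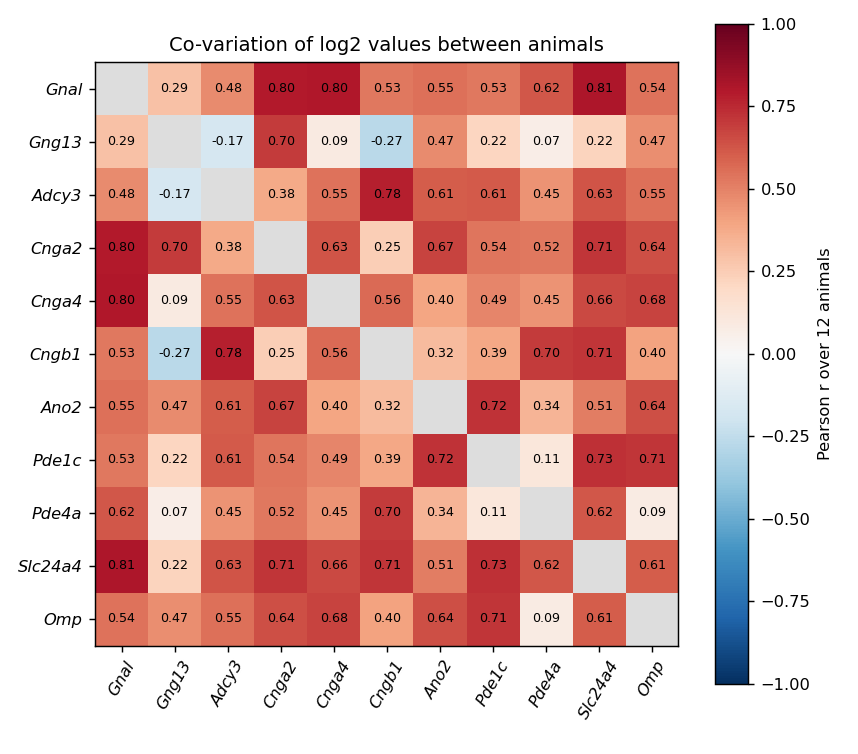
Pearson r over 12 animals between the log2 values of each pair of odor transduction genes, with Omp as the last row and column. Red is positive and blue negative, and the 2 negative pairs are those of Gng13 with Cngb1 and with Adcy3.

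Gng13 was the member whose median r with the others was lowest. Its r with Cnga2 was 0.70, but its median r with the other members was 0.22, against 0.45 to 0.66 for each of the other 9. The r of Gng13 with Cngb1 was -0.27 (rho = -0.22) and with Adcy3 -0.17 (rho = -0.12), and the exon overlap of Gng13 with Chtf18 applies to these values. Against Omp, the r of the 10 members ran from 0.09 for Pde4a to 0.71 for Pde1c, with 0 of 10 past the adjustment over the 10 genes, 5 with group-centred values and 7 without wildtype 1. Pde1c ranked 90th of 19,099 genes by its r with Omp (r = 0.71, rho = 0.71, permutation p = 0.0098, adjusted p = 0.063), and r was 0.73 without the 2 farthest animals. Pde4a ranked 7,755th.

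The genes most like the members were sought by their r with the mean profile of the 10 genes, centred on each group, over 12 animals. The first 5 were Ric8b (r = 0.96), Nsg1 (0.95), Magi1 (0.94), the odorant receptor gene Olfr1277 (0.92) and Vwa3a (0.91), and Omp ranked 45th (0.82). Ric8b, which encodes a guanine nucleotide exchange factor for Golf, had 18,337 ± 1,550 normalized read counts in eB deletion mice and 16,788 ± 1,170 in wildtype mice (SD, n = 6 each), and its log2 fold change was 0.13 ± 0.07 (SE; limma adjusted p = 0.892). The same measure had a median of 0.60 over 12 markers of mature sensory neurons, -0.15 over 9 of immature neurons, 0.19 over 6 of sustentacular (supporting) cells and -0.33 over 5 of immune cells, against 0.016 over all other tested genes. Single markers spread widely, from -0.12 to 0.82 for mature neurons and from -0.36 to 0.55 for sustentacular cells. A marker of microvillar cells reached 0.70, where the median was 0.07. Of all lists examined, the lowest median was -0.43, over the 3 tested genes of the vomeronasal list, Gnai2, Gnao1 and Gng8. Gng8 is also on the list of immature neurons. Of the same list, Trpc2 was not found by symbol and Vmn2r1 did not pass the filter, so this median cannot be read as that of vomeronasal neurons. The summed level of the mature neuron markers ran from 164,220 to 192,224 normalized read counts in eB deletion mice and from 157,503 to 199,975 in wildtype mice. Their part in the co-variation of the members was not tested.

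Further genes of the pathway, from G protein partners to calcium pumps, numbered 24, all of them tested. Of these, 0 passed over all genes in limma-trend and 1 had an unadjusted p under 0.05, the kinase subunit gene Camk2b. The background over all genes was 5.64% in either direction, of which those lower in the deletion, as Camk2b was, were 2.82% of all. Camk2b was a low gene, averaging 66.1 normalized read counts in eB deletion mice and 81.8 in wildtype mice (n = 6 each), and its log2 fold change was -0.31 ± 0.12 (SE; limma adjusted p = 0.850). The median log2 fold change of the 24 was -0.02, with 8 positive and 16 negative. Among the most abundant were Omp, with a log2 fold change of -0.03 ± 0.09 (SE), the ciliary stomatin-like gene Stoml3 with 0.07 ± 0.09 and the G protein beta subunit gene Gnb1 with 0.02 ± 0.07. Slc12a2, the cotransporter that loads olfactory neurons with chloride for the Ano2 current, had 0.06 ± 0.06 (SE). Among the 12 mature neuron markers, 2 had an unadjusted limma p under 0.05, against 5.64% of all genes. These were Nqo1 (-0.35 ± 0.14) and S100a5 (-0.35 ± 0.13; SE), with limma adjusted p of 0.850 and 0.816. Both were named after their values were seen, and the median of the 12 was -0.02.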

How the data were processed

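Total RNA of the olfactory mucosa was sequenced after ribosomal RNA removal with a stranded kit, per the labels' protocols. The submitters' processing notes name STAR 2.6.0, DESeq2 and GRCm38.p6. For the read counter, its annotation and the use of strand, nothing is given in the sources used here. Deposited gene values are normalized counts (unit: signal), which the authors had scaled by a size factor for each library, as the values show. In each library, 100% of values were whole multiples of 1 read (relative tolerance 0.001), and reads recovered in this way were tested with edgeR 4.0.16 and DESeq2 1.42.0. The authors' deposited log2 fold change is positive where wildtype is higher. Its score (the test statistic), p-value and adjusted p-value were copied from the authors' deposited table or left unused.

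The main test, limma-trend, was run in R 4.3.3 with limma 3.58.1 on log2(value + 1), over the 19,100 genes that reached 10 in at least 6 samples, without covariates, with Benjamini-Hochberg adjustment at 0.05. It gives eB deletion minus wildtype on the log2(value + 1) scale. The procedure was tested on simulated data. Correlations used two-sided permutation tests with 100,000 resamples, and ratios an exact permutation test (scipy 1.17.1, Python 3.11.15). Positions and exon lengths came from GENCODE M21 on GRCm38, which held 44,840 of the 44,930 identifiers, and promoters from RefSeq. Counting errors cover sampling of reads only. No 2 libraries of a group were duplicates (lowest chi-square per degree of freedom 12.93).

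The members and all lists were chosen with earlier results of these data known. Named genes are all members, up to 4 of highest mean in a described list, the related gene of highest level per kb, the 5 genes most like the member mean, and Gm10800. Ric8b, Slc12a2, Camk2b, Pde4b, Nqo1, S100a5, Gnas, the other genes at an unadjusted p under 0.05 and the overlapping genes were named after their values were seen. The value of 1 gene that the rule gives is omitted. Alternatives were other scalings, filters, pseudocounts (0.5 and 5), tests, weights, covariates and library subsets, and leaving out each animal.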

Additional observations from a re-analysis of the deposited data

Results flagged for a closer look

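In 42 groups of 6 values (10 members, Omp, 9 ratios and the Gm10800 share in each genotype), 4 held a sample far from the others. Chance flags about 1 group in 20, or 2.1 of 42. Slc24a4 was at 1248 normalized read counts in wildtype 4, where the nearest wildtype animal had 1056. The log2 ratio of Ano2 to Cnga2 was -1.054 in eB deletion 6, and the nearest eB deletion animal had -1.256. Gm10800 took 2.376% of reads in eB deletion 4, against 0.554% in the nearest eB deletion library. It took 11.02% of reads in wildtype 2, against 0.329% in the nearest wildtype library.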

How the results depend on the processing

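Under all 26 alternatives 0 members passed over all genes, and Pde4a, Gnal, Gng13, Cnga2, Ano2 and Pde1c kept the sign of their log2 fold change. Over all genes DESeq2 called 18 against 0 in limma-trend, and 0 to 1 were called when 1 animal was left out (1 without wildtype 6). Of the 45 member pairs, 9 passed in the main analysis, 4 with TMM scaling, 15 with group-centred values, 2 without the 4 libraries over 0.1% Gm10800 and 0 to 9 with 1 animal left out. Members correlated with Omp numbered 0, then 5 with group-centred values and 0 to 7 with 1 animal left out. Ratios past the threshold numbered 0, and 0 to 1 with 1 animal left out. Signs reversed for Adcy3 (0.022 with Omp as a covariate; -0.050 to 0.047 with 1 animal left out) and, with 1 animal left out, for Cnga4 (-0.027 to 0.081), Cngb1 (-0.0020 to 0.083) and Slc24a4 (-0.0017 to 0.089), all values near 0. Log2 ratio differences reversed with 1 animal left out for Gng13/Gnal (-0.024 to 0.076), Gnas/Gnal (-0.28 to 0.072) and Slc24a4/Ano2 (-0.063 to 0.040), and for Pde1c/Adcy3 without the 4 libraries (0.00047). The causes were not tested. No pairing by replicate number was visible, since same-numbered samples correlated at -0.116 to 0.161 and 1 of 6 pairs was over 0.1. This check cannot exclude a pairing by litter or dissection, which the labels do not name. With the replicate block 0 genes were called, Pde4a had a log2 fold change of 0.23 (limma adjusted p = 0.661) and the Pde4a/Adcy3 difference an exact sign-flip p of 0.0625. The few sign-flips that 6 pairs allow mean that a single ratio could not pass there after adjustment over the 9 ratios. With 6 animals a group, the 95% intervals of single members allow differences of about the sizes given above. The lowest member depth was 722 reads in 1 library, and the part of depth in these limits was not tested.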
